A study of Mus musculus with 10 samples.

Results

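The 47 genes described here belong to 2 signalling pathways of the developing brain, 34 to the Notch pathway and 13 to the Hedgehog pathway. They were taken as a fixed list of symbols and looked up by name in 2 lists of m6A peaks, which together name 8516 genes. Of the 47 genes, 33 had at least 1 peak in either list and 14 had none. The peaks come from m6A-seq, in which an antibody against N6-methyladenosine (m6A) enriches RNA fragments that are then compared with unselected input RNA. The wild-type (WT) list goes with 3 IP and 3 input libraries, and the knockout (KO) list with 2 IP and 2 input libraries. All libraries were made from polyadenylated RNA, labelled as cortex and hippocampus, and the mice were at postnatal day 5. In the KO, Mettl14, which encodes a core subunit of the m6A writer complex, was removed by Nestin-Cre, a recombinase driven in the neuroepithelial lineage that forms neurons, astrocytes and oligodendrocytes. Microglia and vessel cells lie outside that lineage. The labels do not say whether the WT animals carried Cre or a floxed allele, or whether libraries came from separate animals. They also name a culture medium, so RNA from tissue and RNA from cultured cells cannot be told apart.

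Each genotype has 1 list and no values per library. There is thus no spread between replicates to set a difference against, no test between genotypes was made, and the comparisons describe these lists. Missing methylation, scarce RNA and shallow sequencing cannot be told apart in a list of peaks. Intervals are Wilson 95% intervals and cover counting error over genes or peaks only, which are not replicates. Where KO peaks overlapped none of a group's WT peaks, the share said to be allowed is not a Wilson bound. It is an approximate upper limit, 3 counts divided by the number of WT peaks. Positions refer to the build GRCm38 and are counted from 1, and every peak of the 47 genes lay inside the span that the RefSeq gene table gives for its gene.

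The lists were checked against markers of the labelled tissue. All 13 listed markers of cortical and hippocampal neurons, among them Emx1, Prox1, Neurod2 and Rbfox3, had a WT peak, 10 of them had a KO peak, and KO peaks overlapped 14 of their 32 WT peaks. Of 9 markers of radial glia and astrocytes, 9 had a WT peak and 5 a KO peak, with 4 of 13 WT peaks overlapped. Of 7 oligodendrocyte lineage markers, 6 had a WT peak and 1 a KO peak, with 0 of 18 WT peaks overlapped, which allows a share of up to 16.7%. None of 6 markers of the hindbrain or of other organs had a WT peak, while Hoxb4 and Barhl1 had 1 KO peak each. Markers of cells outside the Nestin lineage were present too. Of 7 microglia genes, 5 had a WT peak and 2 a KO peak, with 2 of 9 WT peaks overlapped. Of 12 vessel and meningeal genes, 8 had a WT peak and 3 a KO peak, with 2 of 15 WT peaks overlapped. Over all protein-coding genes, 34.2% had a WT peak and 12.2% a KO peak, and KO peaks overlapped 12.9% of all WT peaks. Differences between these small marker groups were not tested. Mettl14 had 1 WT peak of 180 exonic bases and no KO peak, which does not measure how much of its RNA was left.

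Notch signalling passes between touching cells. A Delta or Jagged ligand on a cell binds a Notch receptor on its neighbour, proteases cut the receptor, and the freed intracellular part joins RBPJ and a Mastermind protein in the nucleus to switch on Hes and Hey genes. In the embryonic cortex this keeps radial glia from becoming neurons too early, and it also acts in vessels and glia. Hedgehog signalling starts with a secreted ligand, often Sonic hedgehog, which relieves the block that the receptor PTCH1 places on Smoothened, so that Gli factors can activate their targets.

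Most of these genes carried m6A peaks in WT and few in the KO. A WT peak was listed for 31 of the 47 genes (66.0%, interval 51.7 to 77.8), against 34.2% of the 21900 protein-coding genes of the gene table, which includes genes that the brain does not use. A KO peak was listed for 8 genes (17.0%, interval 8.89 to 30.1), against 12.2% of protein-coding genes. The 31 genes held 68 WT peaks over 14685 exonic bases, and the 8 genes held 8 KO peaks over 1236 exonic bases. That is 8.50 WT peaks for each KO peak, against 4.09 over the whole lists.

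Few WT peaks were retained, meaning that a KO peak covered at least 1 of their exonic bases on the same strand. Retention was seen in 3 genes, Notch2, Notch3 and Dtx1, which is 9.68% of the 31 genes with a WT peak (interval 3.35 to 24.9). The share was 20.6% over all genes in the WT list. By peaks, 3 of 68 were retained (4.41%, interval 1.51 to 12.2), against 12.9% of all WT peaks. Without the requirement of overlap, 6 of the 31 genes had a KO peak somewhere, against 27.0% of all genes with a WT peak. Of the 8 KO peaks, 3 lay over a WT peak (37.5%, interval 13.7 to 69.4), against 57.1% of all KO peaks. Another 3, in Maml2, Heyl and Gli3, lay elsewhere in a gene with WT peaks. The last 2, in Jag1 and Mib1, lay in genes without a WT peak, and 27.8% of all genes with a KO peak were of that kind. When at least 50% of the exonic bases of both peaks had to be shared, Dtx1 alone kept a retained peak.

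**Figure D1:**
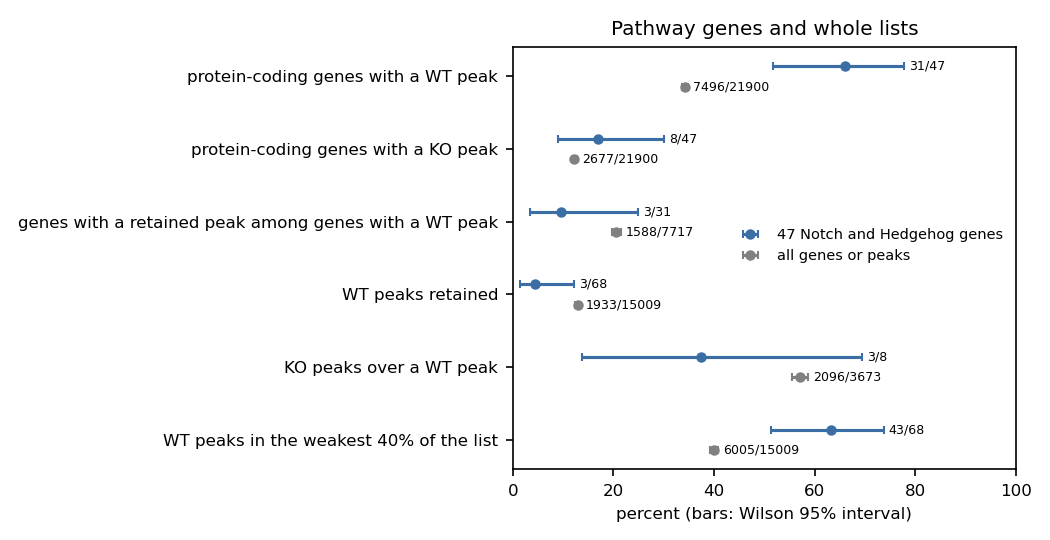
Percent (x axis) of genes or peaks with each property, for the 47 pathway genes in blue and for all genes or peaks in grey. Wilson 95% intervals are shown as bars and counts beside them. Grey shares of protein-coding genes are over the 21900 of the gene table, and the other grey shares are over genes or peaks of the lists. The pathway genes had a WT peak in 31 of 47 cases and a retained WT peak in 3 of 68.

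The WT peaks of these genes sat lower in the WT list than peaks at large. Peaks were ranked by the p-value that the authors list for each, with 0 for the strongest end and 100 for the weakest. The median rank percentile of the 68 peaks was 68.6 (quartiles 41.8 and 86.5), where the list itself has its median in the middle of the scale. Of the 68 peaks, 43 fell in the weakest 40% of the list, and 2 of these 43 were retained (4.65%, interval 1.28 to 15.5). Over all peaks in that part of the list, 4.98% were retained. In the strongest 40%, 1 of 16 peaks was retained (6.25%, interval 1.11 to 28.3), against 22.5% of all peaks there. Peaks of the pathway genes had a median of 180 exonic bases (quartiles 121 and 240), and peaks of the whole list 208 (121 and 328). Expression and depth were not measured here, and their part in these ranks was not tested.

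**Figure D2:**
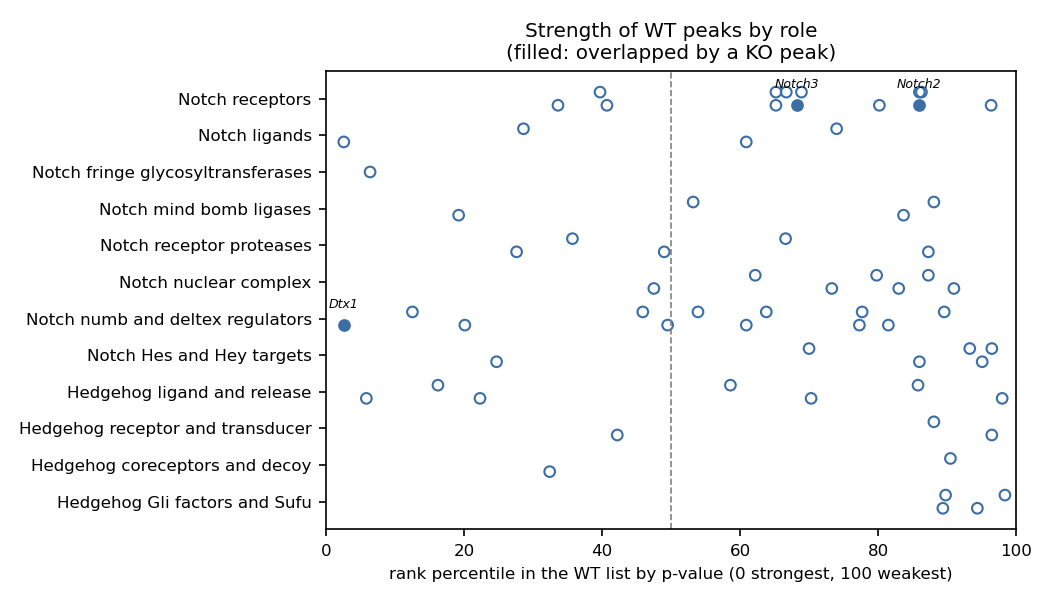
Rank percentile of each of the 68 WT peaks in the WT list by the authors' p-value (x axis, 0 strongest and 100 weakest), by the role of its gene (y axis), with filled points for the 3 retained peaks and a dashed line at the middle of the list. The Dtx1 peak sits at 2.55, and the Notch3 and Notch2 peaks at 68.3 and 86.0. The 4 peaks of Gli factors all sit above 89.

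All 4 receptor genes had WT peaks, 13 in all, and Notch2 held 8 of them. Notch2 encodes a receptor of progenitors and glia. Its 8 WT peaks, of 61 to 241 exonic bases, had midpoints in the last 3936 bases of the gene on chromosome 3. The strongest of them, from 98148212 to 98148452, stood at rank percentile 40.7, and the other 7 between 65.2 and 86.0. The 1 Notch2 KO peak, of 61 bases from 98150008 to 98150068, lay inside the last of the WT peaks, which covers 181 bases from 98149918 to 98150098. It was thus the peak nearest the gene end, 360 bases away, that was still listed, and not the strongest. That KO peak was weak in its own list, at rank percentile 91.8. Summed over the gene, exonic peak length was 1085 bases in WT and 61 in the KO.

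Notch1, the receptor that keeps cortical progenitors from differentiating, held 2 WT peaks and no KO peak. They covered 539 and 300 bases on chromosome 2, with midpoints 2574 and 1915 bases before the gene end, at rank percentiles 33.6 and 39.7. Both were stronger than any Notch2 peak by rank. Notch4, a receptor mostly of endothelial cells, had 1 weak WT peak of 61 bases at rank percentile 96.4.

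Notch3, a receptor of mural cells of vessels and of some progenitors, had 2 WT peaks on chromosome 17 and retained 1. The retained peak ran over 3 exonic blocks, from 32135487 to 32139195 and with 211 exonic bases. The KO peak lay wholly inside it, with 91 bases on 2 blocks. This is the interior of the gene, 17040 bases from its end, while the lost Notch3 peak of 120 bases lay 1676 bases from the end. Since Notch3 marks mural cells, the vessel and meningeal markers are given beside it. Of the 12 such genes counted above, 1, the endothelial cadherin gene Cdh5, had retained peaks. Pdgfrb and Rgs5, which define mural cells, had 1 WT peak each and no KO peak. The part of such cells in the Notch3 peak was not tested, and fewer cells of a type and less RNA per cell cannot be told apart in bulk RNA.

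Among the 5 ligand genes, Dll1, Dll4 and Jag2 had WT peaks and none of these was retained. With 4 WT peaks, none retained allows a share of up to 75.0%, and 12.9% of all WT peaks were retained. Dll1, the Delta ligand of newborn neurons and their progenitors, had a peak of 359 bases 1226 bases before the gene end, at rank percentile 28.6. A second Dll1 peak, of 90 bases, lay near the other end, 1452 bases after the gene start. Jag2 had 1 peak, of 448 bases on chromosome 12 from 112908858 to 112909305, whose p-value is listed as 0, too small to be held. It ranked with the strongest of the list, at percentile 2.55, and had no KO peak over it. Dll4, the Delta ligand of growing vessels, had 1 peak of 120 bases, and Dll3, whose product acts inside the cell, had none. Jag1, a ligand of progenitors, glia and vessels, went the other way. It had no WT peak and 1 KO peak of 181 bases on chromosome 2, from 137082346 to 137082526, at rank percentile 28.8 of the KO list. The Jag1 peak was the second strongest of the 8 KO peaks by rank, after that of Dtx1.

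Genes that modify ligands and receptors also differed among themselves. Of the fringe genes, which encode sugar transferases that tune the response of Notch to its ligands, Rfng had 1 WT peak and Lfng and Mfng had none. The Rfng peak, of 180 bases, lay 268 bases before the gene end and ranked high, at percentile 6.36, and no KO peak was listed. Mib1 and Mib2 encode ubiquitin ligases that drive ligand uptake in the sending cell. Mib2 had 4 WT peaks over 933 exonic bases, with midpoints from 180 bases after the gene start to 224 bases before the gene end, and no KO peak. Its strongest peak covered 271 bases on 3 exonic blocks, at rank percentile 19.2. Mib1 had no WT peak and 1 KO peak of 181 bases on chromosome 18, at rank percentile 60.7 of the KO list. No entry of the WT list lay inside the span of Jag1 or Mib1 on either strand or under another name.

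All 4 genes for proteases that cut the receptor had WT peaks, and none had a KO peak. Over all genes with a WT peak, 27.0% had a KO peak. Adam17 had 2 peaks, of 240 and 181 bases, at rank percentiles 35.7 and 49.0. Adam10, the main enzyme of the first cut, had 1 peak of 121 bases at percentile 87.3. Ncstn, the nicastrin subunit of gamma-secretase, had 1 peak of 180 bases near the gene end at percentile 27.6, and Psen2, a catalytic subunit of the same enzyme, 1 of 209 bases on 2 exonic blocks at percentile 66.6.

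In the nuclear complex, the 3 Mastermind coactivator genes had WT peaks and Rbpj, which encodes the DNA-binding partner, had none in either list. Maml1 had 2 WT peaks and Maml3 had 4, all 4 with midpoints in the last 3100 bases of the gene, and neither had a KO peak. Maml2 had 1 WT peak of 330 bases and 1 KO peak of 151 bases on chromosome 9, the KO peak starting 1287 bases beyond the end of the WT peak, towards the gene end.

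Numb and deltex genes held 12 WT peaks, and Dtx1 kept the strongest peak of the pathway in the KO. Dtx1 encodes a deltex ubiquitin ligase that acts on Notch. Its retained WT peak covers 540 bases on chromosome 5 from 120710351 to 120710890, with its midpoint 1247 bases after the gene start, and its p-value is listed as 0. The KO peak, from 120710561 to 120710860, covers 300 of these bases and is listed with a value of 1e-134, at rank percentile 5.53 of the KO list. The 2 other Dtx1 WT peaks, each of 181 exonic bases, were lost, among them 1 that ends only 89 bases before the KO peak begins on the transcript. Dtx4 had a WT peak of comparable size, 629 bases at rank percentile 12.5, with 2 smaller peaks and none in the KO. Dtx2 had 1 WT peak and Dtx3 had 2. Numbl, which encodes an inhibitor of Notch, had 3 WT peaks over 627 bases, the strongest at percentile 20.1, while its paralogue Numb had no peak in either list.

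Genes of the Hes and Hey families divided between peaks and none. Hes1 and Hes5, the main Notch effectors of cortical progenitors, and Hey2 had no peak in either list. Hey1, a related repressor, had a WT peak of 627 bases at rank percentile 24.7 and a small one of 60 bases near the gene start. Hes6, which promotes neuronal differentiation and opposes Hes1, had 2 WT peaks of 239 and 91 bases. Neither gene had a KO peak. Heyl had 2 weak WT peaks of 60 and 61 bases, at percentiles 95.1 and 96.5, and 1 KO peak of 60 bases at percentile 95.8 of its list. The Heyl KO peak lay 238 bases before the nearest WT peak, so that all 3 fell within a short stretch of the gene without touching.

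**Figure D3:**
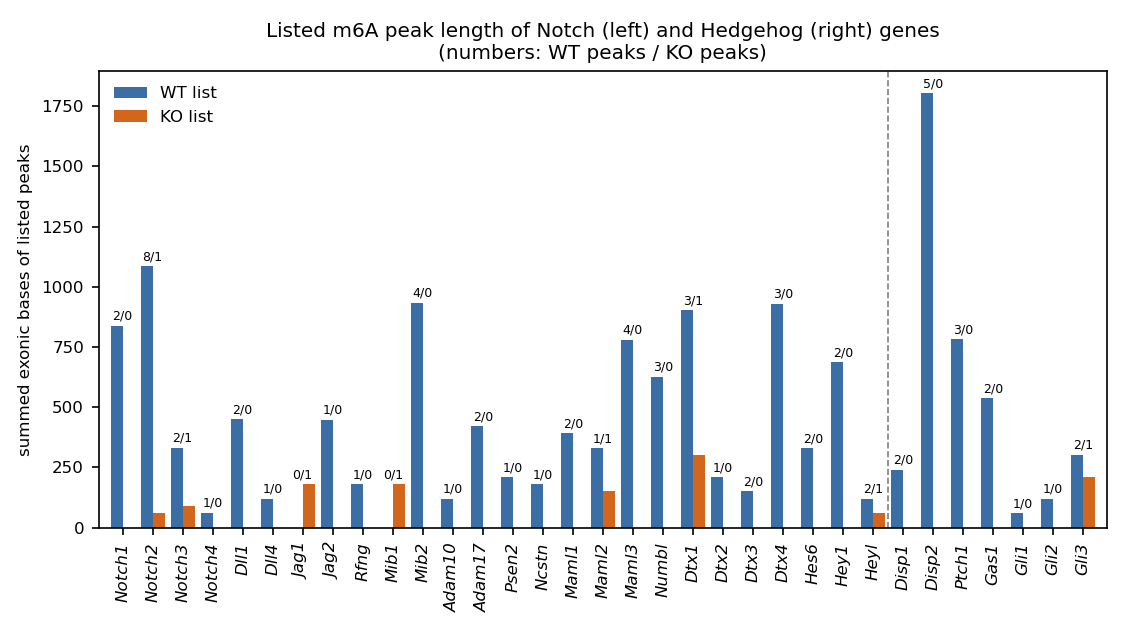
Summed exonic bases of listed peaks (y axis) for each of the 33 genes with a peak, in the WT list (blue) and the KO list (orange), with the number of WT and KO peaks above the bars. Notch genes stand left of the dashed line and Hedgehog genes right of it. Disp2 has the tallest bar, and Jag1 and Mib1 have KO bars only.

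Hedgehog genes had 16 WT peaks in 7 of 13 genes, none retained, and 1 KO peak. With 16 peaks, none retained allows a share of up to 18.8%, and 12.9% of all WT peaks were retained. Disp2, a brain relative of the transporter that releases Hedgehog ligands, led the whole set by peak length. Its 5 WT peaks covered 1804 exonic bases on chromosome 2 between 118790856 and 118793645. The longest had 871 bases at rank percentile 16.2, and the strongest 421 bases at 5.82. None was overlapped by a KO peak. Of the 5, 3 were in the strongest 40% of the list, where 22.5% of all WT peaks were retained. Disp1, the transporter gene itself, had 2 WT peaks of 120 and 121 bases, and the ligand gene Shh had none in either list.

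Ptch1, receptor and target of the pathway, had 3 WT peaks spread over the gene on chromosome 13, with midpoints 226, 9682 and 61731 bases after its start. The last of these was the strongest, 450 bases at rank percentile 42.2, and the others stood at 88.1 and 96.5. Gas1, which encodes a coreceptor anchored to the membrane, had 2 WT peaks, of 388 bases at percentile 32.4 and of 150 bases at percentile 90.5. The transducer gene Smo, the coreceptor genes Boc and Cdon, the decoy receptor gene Hhip and the Gli inhibitor gene Sufu had no peak in either list.

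All 3 Gli genes had WT peaks, and all of these were weak. Gli1, whose transcription reports an active pathway, had 1 peak of 60 bases at rank percentile 98.4, the lowest of the 68. Gli2 had 1 of 121 bases at 89.4. Gli3, the main repressor form in the dorsal forebrain, had 2, of 181 bases at 94.4 and 121 bases at 89.8. The single KO peak of the Hedgehog genes was in Gli3, 211 bases on chromosome 13 from 15726937 to 15727147, which is wider than either WT peak. It began 839 bases beyond the nearer WT peak, towards the gene end. Its rank percentile in the KO list was 63.1.

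The 3 KO peaks elsewhere in a gene with WT peaks thus lay 238, 839 and 1287 bases from the nearest WT peak, in Heyl, Gli3 and Maml2. For all 741 KO peaks of that kind, the median distance along the chromosome was 2187 bases (quartiles 598 and 9918). In Gli3 and Maml2 the KO peak was nearer the gene end than the WT peaks, and in Heyl it was farther from it.

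Most WT peaks lay within 5000 bases of the gene end. Of the 68 midpoints, 51 were within 5000 bases of the gene end (75.0%, interval 63.6 to 83.8), against 57.2% of all WT peaks, and 12 were within 1000 bases (17.6%, interval 10.4 to 28.4), against 16.5%. The window of 5000 bases spans the whole of short genes, such as Hes6 (2556 bases) and Hey1 (3680 bases), so that share depends on gene length. It also counts the Hey1 peak near the gene start, which lay 3589 bases from the gene end. Distances run along the chromosome, introns included, and do not tell coding sequence from untranslated sequence. Within 200 bases of the gene start, 3 midpoints were found, in Adam10, Hey1 and Mib2 (4.41%, interval 1.51 to 12.2), against 4.45% of all WT peaks. On 2 or more exonic blocks lay 11 of the 68 peaks (16.2%, interval 9.28 to 26.7), against 23.5% of all WT peaks.

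**Figure D4:**
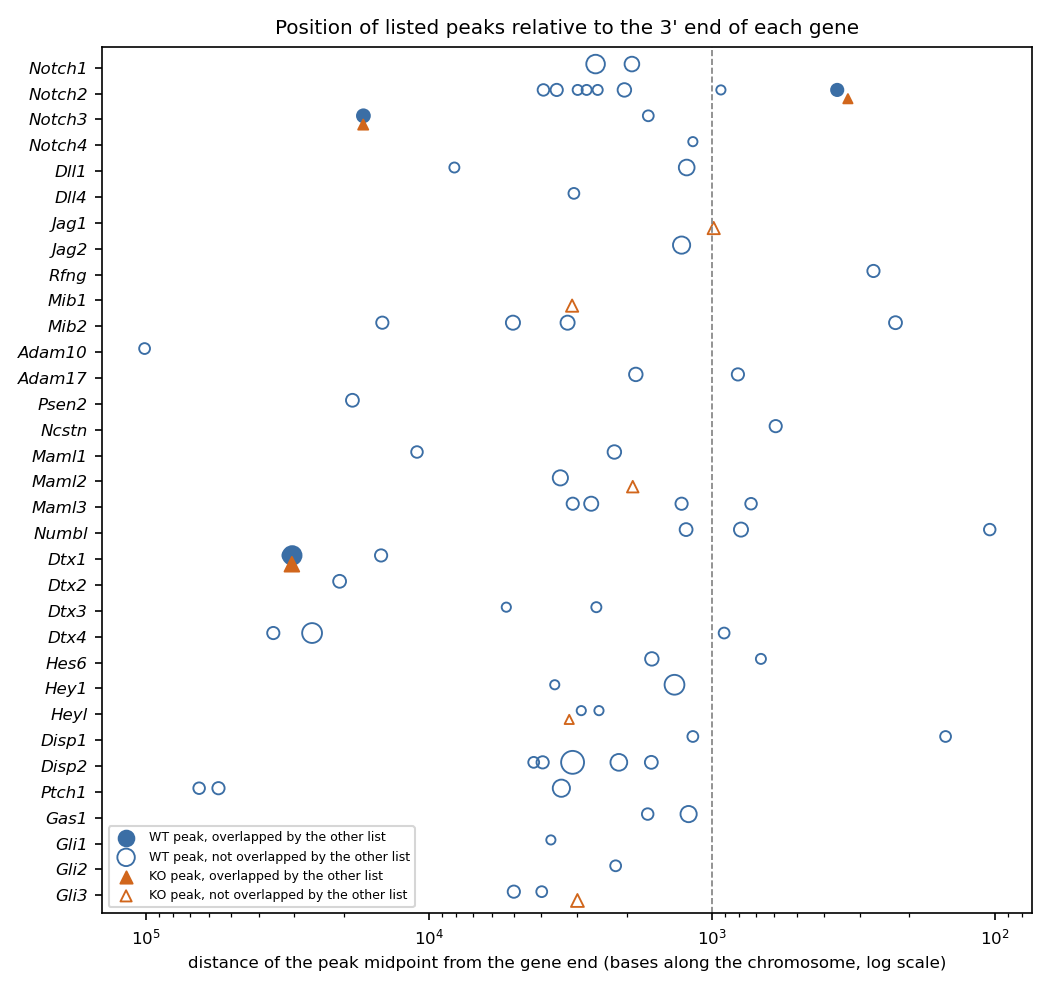
Distance of each peak midpoint from the gene end (x axis, bases along the chromosome, log scale, gene end to the right) for the 33 genes with a peak. Circles are WT peaks, triangles KO peaks, filled where the other list overlaps them, and larger symbols mean more exonic bases. The dashed line marks 1000 bases, with 12 WT peaks to its right, and filled symbols appear in Notch2, Notch3 and Dtx1.

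Bases of WT peaks could be read for 3 genes, where a peak reaches into the first 50 transcribed bases after a start site of the RefSeq promoter windows (GRCm38.p6). They are shown because they are the only peak bases of these genes in the sequences at hand. The letters GGAC, a core of the sequence that the writer complex prefers, were searched on both strands. Searched with them were 3 related cores, AGAC, then the letters GAAC, and finally the letters AAAC. Matches are in capitals, and no match overlapped another. Sequences are given as the transcript reads, with T for U, and at most 30 bases each.
Adam10, chr9:70678982-70679011, plus strand: gagggcagggaagcggggaagggaggaagg
Dtx1, chr5:120711620-120711639, minus strand: cgcgccaGGACtactgcgtc
Hes6, chr1:91413193-91413222, minus strand: gaAGACtccggagagctagtggggcctccg

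The Adam10 WT peak begins at base 1 of the transcript, exactly at the listed start site, and its first 30 bases hold none of the 4 cores. The Dtx1 stretch belongs to the lost WT peak nearest the start of that gene, not to the retained one, and holds GGAC. The Hes6 stretch follows a start site inside the gene and holds AGAC near its beginning. The other strand held no core in any of the 3 stretches. Bases 1 to 30 of 32851 promoter windows held at least 1 of these cores on the transcribed strand in 34.5% of cases and on either strand in 58.4%, and bases 31 to 50 in 22.4% and 43.3%. Such short letters are common, and a match does not show that a base is methylated.

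Other genes of the pathways, listed apart from the 47, gave a fuller view. Of 37 further Notch genes, 24 had a WT peak, 12 had a KO peak and 8 had a retained peak, with 16 of 68 WT peaks retained. The corepressor gene Spen, whose product silences RBPJ targets when Notch is off, retained 3 of 14 peaks and had 4 KO peaks. Tle3, a Groucho corepressor gene, retained 2 of 3. Nrarp, a Notch target that feeds back on the receptor's intracellular part, lost 3 peaks, Furin lost 2, and Pofut1, which encodes the enzyme that adds fucose to Notch, lost 3 and had 1 KO peak elsewhere. Of 40 further Hedgehog genes, 20 had a WT peak, 6 had a KO peak and 5 had a retained peak, with 5 of 45 WT peaks retained. Kif3a, a motor gene of the primary cilium in which Hedgehog signals pass, and Gpr161, a ciliary inhibitor of the pathway, retained 1 of 2 peaks each. Scube1 and Btrc lost 4 peaks each, and Spop, an adaptor for Gli turnover, lost 3. Shares of the same kind over all genes are those given above, 20.6% of genes and 12.9% of peaks. The further Notch genes lay above both shares. The 34 Notch members lay below both, with 3 of 52 WT peaks retained in 3 of 24 genes. Further Hedgehog genes lay above the share of genes and below that of peaks. Low retention was thus seen in the 47 genes as listed, not across Notch genes at large, and these differences were not tested.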

How the data were processed

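Polyadenylated RNA of 10 libraries was profiled by m6A-seq. STAR and the build GRCm38 are named per the submitters' processing notes. The peak caller, the thresholds and the pooling of libraries remain unnamed, not given in the sources used here. For each genotype the authors deposited 1 list with positions, gene symbols, exonic blocks and a score, taken here for a p-value or q-value, as it lay between 0 and 0.00015, and used only to rank or filter peaks within a list. It is rounded: from above 0 to 1e-10, 92.6% of WT and 90.2% of KO values lay within 3% of steps of 0.1 in -log10. Widths of 91.2% and 96.3% of single-block entries were within 1 base of a multiple of 30. Library depth is unknown here.

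Entries of a list that shared exonic bases on a strand were joined (15091 to 15009 WT and 3733 to 3673 KO peaks), which changed no peak of the 47 genes. All 47 symbols were found in the RefSeq gene table of GRCm38.p6, and no peak bore a synonym. Midpoints were taken along exonic bases. Python 3.11.15, pandas 2.3.3 and statsmodels 0.14.6 were used, and the overlap code was tested on simulated data. Groups came from the sample titles. Members, lists and rules were chosen with earlier results of these data known. Every member with a peak is named, and in each list of other pathway genes the 3 with most WT peaks and none retained and the 3 with most KO peaks and 1 or more retained. Some genes that this rule takes are not reported here. Alternatives varied overlap, strand, merging, list length and strength, repeated p-values and gene names.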

Additional observations from a re-analysis of the deposited data

How the results depend on the processing

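No paired analysis was possible because each genotype has a single list, which also means that no replicate could be left out. Whole spans, no strand, unmerged entries and peaks taken by position gave the same counts for the 47 genes. With 50% of the peak covered, or of both peaks shared, retained genes were 1 (Dtx1) and retained WT peaks 1.47%, against 6.83% and 6.26% of all WT peaks, and KO peaks over a WT peak were 12.5% with both shared, against 25.6% of all KO peaks. In the stronger 50% of each list, 16 genes had a WT peak, 2 a KO peak and 1 a retained peak, with 1 of 22 WT peaks retained (14.1% of all) and 1 of 2 KO peaks over a WT peak (61.9% of all). With as many WT as KO peaks, taken from the strong end, 7 had a WT peak, 1 a retained peak, and 12.5% of KO peaks lay over a WT peak, against 32.5% of all. In that shortened list 1 of 9 WT peaks was retained (11.1%), against 28.6% of all. Without p-values held by at least 10 entries, which rounding makes common (9845 WT and 1626 KO entries), 17 genes had a WT peak, 5 a KO peak and 1 a retained peak, with 1 of 19 WT peaks retained (13.7% of all) and 1 of 5 KO peaks over a WT peak (37.6% of all). Fewer peaks enter in these last settings. Counting peaks within 300 bases as overlapping, chosen after seeing the data, added a Heyl peak and another Dtx1 peak. Retained peaks were then in 4 genes, 5 of 68 peaks (7.35%), against 15.0% of all WT peaks. KO peaks over a WT peak were 4 of 8, against 60.3% of all KO peaks. With 8 KO peaks, each peak moves a share of KO peaks by over 10 percentage points.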
